A study of Mus musculus with 9 samples.

Results

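The Klotho beta and FGF receptor axis was followed here through 10 genes in brown adipose tissue of obese mice, out of 49315 genes listed in the deposited count files. The genes were the coreceptors Klb and Kl, the receptors Fgfr1, Fgfr2, Fgfr3 and Fgfr4, and the ligands Fgf1, Fgf2, Fgf10 and Fgf21, each taken by its symbol and Ensembl identifier. The set was chosen by gene role and selected on the cotadutide against vehicle differences measured in these same libraries, so levels and changes of its members are given as a description without a test. All 10 were found, and 7 passed the filter on low counts (Kl, Fgf21 and Fgfr4 did not). The mice were male C57Bl/6J, made obese on a 60% high fat diet, 14 weeks old with 3 weeks of acclimation, housed alone and not at thermoneutrality, and kept on the diet to about 50 g. Of these, 4 received vehicle and 5 received cotadutide, a peptide agonist of the receptors for glucagon-like peptide 1 and glucagon, by daily injection under the skin for 28 days. The dose is not given in the sources used here. Both groups carried the same diet and no genetic change, and there was 1 polyA RNA library per mouse. The study asked which genes of brown fat differ under the drug.

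Fibroblast growth factors (FGFs) signal through receptor tyrosine kinases of the FGFR family. Paracrine members such as FGF1, FGF2 and FGF10 bind heparan sulfate together with a receptor at the cell surface, and act near the cell that releases them. FGF21 is a hormone that binds heparan sulfate weakly and needs beta-Klotho, the product of Klb, beside a receptor, mainly FGFR1 in fat. Alpha-Klotho, the product of Kl, serves the hormone FGF23 in kidney in the same way. Activated receptors recruit the adaptor FRS2 and drive the RAS and ERK kinase cascade, which switches on its own inhibitors of the Sprouty, Spred and dual-specificity phosphatase families.

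The start regions of Klb and Fgfr2, the members whose level was higher in every cotadutide mouse, and of Fgf21, the hormone that uses beta-Klotho, are shown so that they can be compared. They are RefSeq sequences of build GRCm38.p6 before the annotated start, which matched 8 of the 10 genes, and positions count back from that start. Klb is shown at chr5:65348161-65348313 on the plus strand, which stops where the gene model of the deposited files begins, Fgfr2 at chr7:130266809-130267058 and Fgf21 at chr7:45615491-45615740, both on the minus strand. The Fgfr2 region lies inside the gene model of the files but outside its exons. Capitals mark matches, on either strand, to the 15 motifs that were searched.
Klb: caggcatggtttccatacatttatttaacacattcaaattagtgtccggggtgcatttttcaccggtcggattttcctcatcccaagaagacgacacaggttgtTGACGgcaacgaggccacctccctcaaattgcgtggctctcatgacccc
Fgfr2: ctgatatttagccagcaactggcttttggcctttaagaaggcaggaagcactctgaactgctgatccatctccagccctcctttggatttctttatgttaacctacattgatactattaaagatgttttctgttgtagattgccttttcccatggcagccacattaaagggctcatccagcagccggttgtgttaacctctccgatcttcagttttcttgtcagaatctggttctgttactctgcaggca
Fgf21: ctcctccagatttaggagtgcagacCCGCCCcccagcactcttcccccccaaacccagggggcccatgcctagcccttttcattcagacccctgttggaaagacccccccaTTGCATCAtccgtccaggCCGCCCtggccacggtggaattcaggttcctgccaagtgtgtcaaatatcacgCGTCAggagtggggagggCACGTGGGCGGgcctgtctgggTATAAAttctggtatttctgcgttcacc
Klb held 1 match, TGACG, the core of the cyclic AMP response element, at -146 to -142. That core was present in 17.8% of 32851 mouse start regions of the same 250 bases. Fgfr2 held no match to any of the 15 motifs in its 250 bases. Fgf21 held a TATA box (TATAAA, in 12.4% of start regions) at -28 to -23, 3 GC boxes (GGGCGG, 32.7%), of which the nearest overlaps by 1 base an E-box (CACGTG, 6.02%), 1 TGACG core, and an amino acid response element (TGATGCAA, 0.791%) at -139 to -132. The last is the kind of site that the stress factor ATF4 binds. The other motifs matched none of the 3 regions. They were the PPAR DR1 element (in 0.0335% of start regions), the nuclear receptor core AGGTCA (14.0%), the ERR element TCAAGGTCA (0.387%), which contains that core, and the C/EBP palindrome (TTGCGCAA, 0.164%). The full cyclic AMP response element (TGACGTCA, 1.55%), which contains its core, the CCAAT box (33.8%), the AP-1 site (TGANTCA, 6.75%), the EBF site (0.779%), the NRF1 site (0.782%) and the Ets core (CCGGAAG, 6.91%) were not found either. GC content was 48% for Klb, 44% for Fgfr2 and 59.6% for Fgf21, against a median of 52.4%. The start region of Klb held 9 CpG dinucleotides and that of Fgfr2 held 2, against a median of 6. The GC, CpG and motif results of Klb cover its full 250 bases. They include the 97 bases nearest the start, which lie in exons of the deposited gene model and are not shown.

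Library totals ranged from 16.1 to 25.1 M counts in vehicle and from 10.8 to 19.5 M counts in cotadutide mice. Values below are CPM, counts per 1 M after scaling each library total, and folds are cotadutide over vehicle. Markers of brown adipocytes were abundant in every library, with 12 of 12 detected. They summed to 19300 to 24000 CPM in vehicle and 25900 to 33500 CPM in cotadutide mice. Several of the 12, such as Fabp4 and Adipoq, are genes of fat cells in general, so the sum is not specific to brown adipocytes. Skeletal muscle markers were detected too (16 of 16), at 23400 to 49100 CPM in vehicle and 5370 to 20400 CPM in cotadutide mice. Sums of white adipocyte (378 to 967 against 175 to 572 CPM), macrophage (339 to 579 against 211 to 446 CPM) and fibroblast and progenitor markers (1040 to 1620 against 658 to 1350 CPM) were lower on average with cotadutide. Mesothelial markers summed to 0.411 to 0.943 against 1.05 to 1.92 CPM. Ranges of endothelial (509 to 674 against 575 to 759 CPM), smooth muscle and pericyte (442 to 612 against 425 to 561 CPM) and Schwann cell markers (311 to 359 against 268 to 321 CPM) overlapped between the groups. Lymphocyte markers stood at 3.24 to 4.17 CPM except in cotadutide mouse 3, at 41.9 CPM. No marker of any list was at 0 in all 9 libraries. However, only 6 of 9 white adipocyte, 3 of 8 lymphocyte and 0 of 4 mesothelial markers passed the filter on low counts. None of the 10 marker sums passed an exact two-sided permutation test after Benjamini-Hochberg adjustment, with the lowest adjusted p at 0.0794 and unadjusted p values of 0.00794 for brown adipocyte, 0.0238 for muscle, 0.0317 for macrophage, 0.0476 for white adipocyte and 0.0159 for mesothelial markers. The smallest p this design allows is 0.00794.

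Klb, the obligate partner of FGF21 receptors, stood at 12.6, 10.0, 11.0 and 11.4 CPM in vehicle mice 1 to 4 and at 17.2, 18.8, 20.1, 18.3 and 19.0 CPM in cotadutide mice 1 to 5. Every cotadutide mouse was above every vehicle mouse, and the spread within each group was small. The means were 11.2 ± 1.07 CPM (SD, n = 4) and 18.7 ± 1.07 CPM (SD, n = 5), a 1.66-fold difference with a log2 fold change of 0.73 (SE 0.09). Of the 7 members that passed the filter, 2 were higher in every cotadutide mouse than in any vehicle mouse (Klb and Fgfr2), where 8.06% of all genes tested were. A further 1 was lower without overlap (Fgf1), where 7.79% of all genes tested were, or 15.8% in both directions. The contrast chose the members, so nothing is read from these counts. In bulk tissue, fewer cells of a type and less RNA per cell cannot be told apart. Klb (ENSMUSG00000029195) lies on chromosome 5 from 65348314 to 65384007 in the coordinates of the files, build mm10, and its exons shared no base with another gene of the files.

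Kl, the coreceptor of FGF23, was close to absent. It had 4 counts over the 4 vehicle libraries and 1 count over the 5 cotadutide libraries, which is 0.0468 CPM (exact 95% Poisson interval 0.0127 to 0.12) and 0.0129 CPM (0.000326 to 0.0716). The limit that a count of 0 allows (3 counts) was 0.0351 CPM for the pooled vehicle and 0.0386 CPM for the pooled cotadutide libraries. A difference between groups was not detectable at this depth. Intervals and limits cover counting error only.

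**Figure D1:**
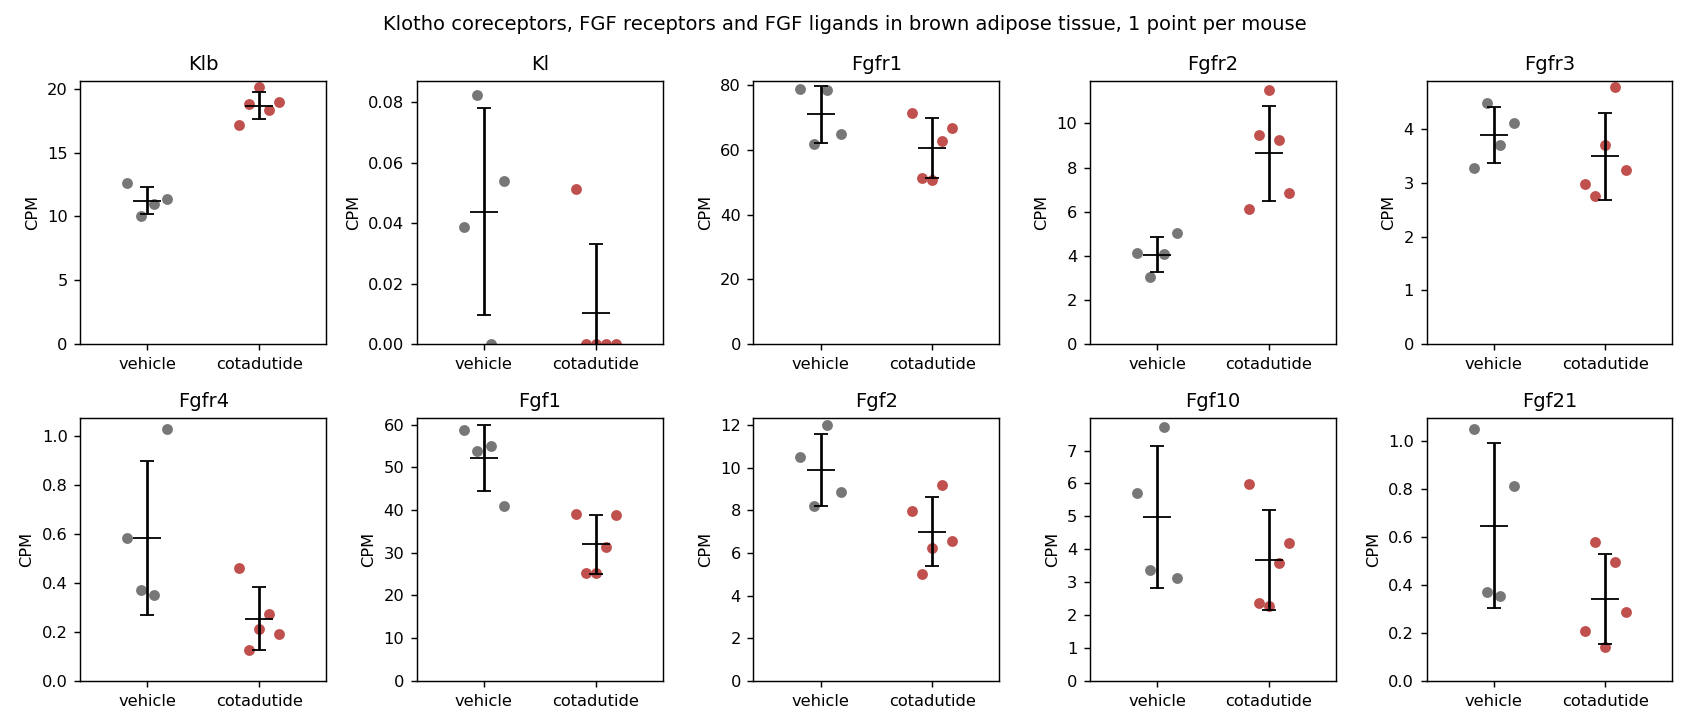
Levels of the 10 genes in CPM (vertical axes, each from 0), with 1 point per mouse, vehicle in grey (n = 4) and cotadutide in red (n = 5), and bars for the mean ± SD. Klb and Fgfr2 sit higher in every cotadutide mouse and Fgf1 lower, while the groups of the other genes overlap.

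Fgfr1, which encodes the main FGF21 receptor of fat, had the highest receptor level per exon length, and its groups overlapped. It stood at 78.7, 62.0, 78.5 and 64.9 CPM in vehicle mice and at 71.4, 51.2, 50.7, 62.9 and 66.8 CPM in cotadutide mice. Cotadutide mice 2 and 3 were below all vehicle mice, and cotadutide mouse 1 was above vehicle mice 2 and 4. The means of 71.0 ± 8.83 and 60.6 ± 9.34 CPM differed by a log2 fold change of -0.23 (SE 0.12). The spread within each group was close to the difference between means. The exons of Fgfr1 share 164 bases with an antisense gene, Gm16159, which had 36 counts in all 9 libraries together.

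Fgfr2, whose splice forms bind FGF1, FGF7 and FGF10, was low in vehicle and higher in all cotadutide mice. Its values were 4.12, 3.04, 4.07 and 5.02 CPM in vehicle and 6.12, 9.49, 11.5, 9.25 and 6.85 CPM in cotadutide mice. The groups did not overlap, but the cotadutide mice differed among themselves, with mouse 1 nearest to vehicle and mouse 3 farthest. The means were 4.06 ± 0.81 and 8.63 ± 2.15 CPM, a 2.13-fold difference with a log2 fold change of 1.09 (SE 0.21). Gene counts do not separate the splice forms. The gene model of the files spans 2960900 bases of chromosome 7, from 130162451 to 133123350, and encloses or overlaps many other genes. Of these only Ctbp2, on the same strand, shares exon bases with it (314). Ctbp2 had 2886 counts in all 9 libraries together. Reads in the shared bases may be uncertain, and their part in the Fgfr2 value was not measured.

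Fgfr3 and Fgfr4, the other receptors, were low. Fgfr3 stood at 3.27, 4.48, 3.71 and 4.11 CPM in vehicle and at 2.98, 2.76, 3.70, 4.79 and 3.24 CPM in cotadutide mice, with a log2 fold change of -0.15 (SE 0.19). The highest and the lowest Fgfr3 values were both in cotadutide mice. It shares 998 exon bases with an antisense gene that had 8 counts in all libraries. Fgfr4, the receptor that pairs with beta-Klotho in liver, had 49 counts over the vehicle and 21 over the cotadutide libraries, or 0.573 CPM (exact 95% Poisson interval 0.424 to 0.758) and 0.27 CPM (0.167 to 0.413). Its highest single value was 1.03 CPM in vehicle mouse 4, the mouse with the highest muscle marker sum, and the groups overlapped (0.353 to 1.03 CPM against 0.128 to 0.463 CPM). The part of muscle RNA in the Fgfr4 level was not tested.

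Expressed per exon length, with reads per kilobase per 1 M counts (RPKM), Fgfr1 made up most of the receptor RNA. It held 86.6 ± 2.73% of the summed level of the receptors in vehicle and 81.2 ± 4.60% in cotadutide mice. Fgfr2 held 4.75 ± 0.943% and 11.4 ± 3.84%. Its share was 4.04 to 6.14% in vehicle and 7.08 to 16.3% in cotadutide mice, without overlap. Fgfr3 held 6.67 ± 1.56% and 6.50 ± 1.41%, and Fgfr4 2.01 ± 1.14% and 0.929 ± 0.389%. On this scale Fgfr3 exceeded Fgfr2 in every vehicle mouse, and Fgfr2 exceeded Fgfr3 in every cotadutide mouse. The vehicle order depends on the division by exon length, 10328 bases for Fgfr2 and 7158 for Fgfr3. In CPM, Fgfr2 was above Fgfr3 in vehicle mice 1 (4.12 against 3.27), 3 (4.07 against 3.71) and 4 (5.02 against 4.11). In vehicle mouse 2 it was below (3.04 against 4.48). A change of rank is therefore not read from the shares.

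**Figure D2:**
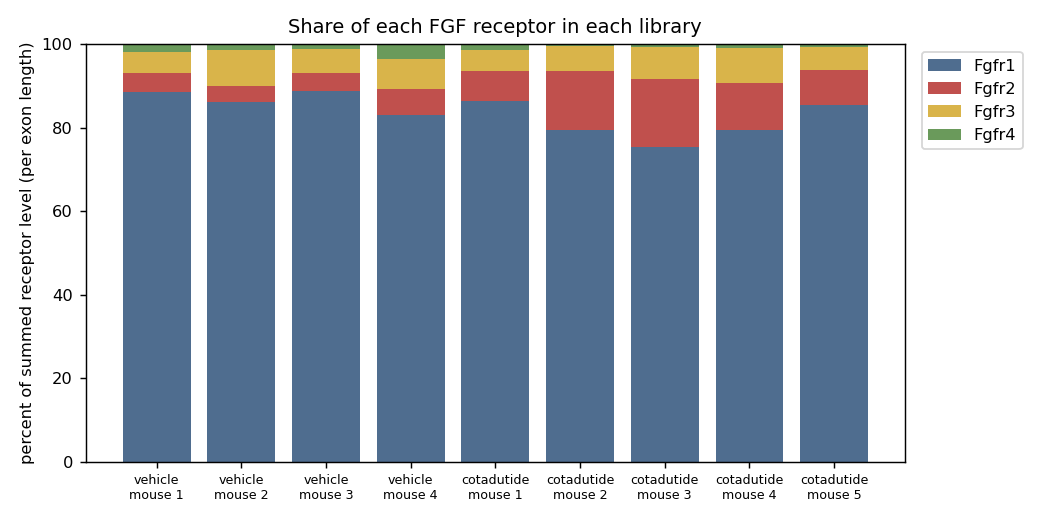
Share of each receptor in the summed per-length level of Fgfr1, Fgfr2, Fgfr3 and Fgfr4 (vertical axis, percent), with 1 bar per library, vehicle mice 1 to 4 on the left and cotadutide mice 1 to 5 on the right. Fgfr1 fills 75.3 to 88.7% of every bar, and the Fgfr2 band is wider in each cotadutide library than in any vehicle library.

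Fgf1, a heparin-binding ligand of all FGF receptors that adipose tissue makes, had the highest level per exon length of the 4 ligands. It stood at 58.7, 53.9, 54.9 and 40.9 CPM in vehicle and at 39.1, 25.3, 25.3, 31.3 and 38.8 CPM in cotadutide mice. All cotadutide mice were lower than all vehicle mice, with vehicle mouse 4 next to cotadutide mice 1 and 5. The means of 52.1 ± 7.75 and 32.0 ± 6.85 CPM differed 1.63-fold, with a log2 fold change of -0.71 (SE 0.16). Fgf1 lies on chromosome 18 from 38838673 to 38929404.

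Fgf2, the basic fibroblast growth factor, was 10.5, 8.23, 12.0 and 8.86 CPM in vehicle and 7.97, 5.00, 6.26, 9.19 and 6.57 CPM in cotadutide mice. The groups overlapped through cotadutide mouse 4. The log2 fold change was -0.49 (SE 0.18). Fgf2 shares 640 exon bases with the antisense gene Nudt6, which had 2225 counts in all libraries, and the strand setting of the counting is not given, so part of the Fgf2 value may come from the other strand.

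Fgf10, a mesenchymal ligand of the FGFR2 splice form of epithelia that fat cell precursors also make, varied widely between mice of a group. It was 5.72, 3.37, 7.72 and 3.13 CPM in vehicle and 5.97, 2.37, 2.28, 3.58 and 4.19 CPM in cotadutide mice. The second highest of the 9 values was that of cotadutide mouse 1. The log2 fold change was -0.42 (SE 0.34), and it ranged from -0.72 without cotadutide mouse 1 to -0.16 without vehicle mouse 3.

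Fgf21, the hormone itself, was detected in all 9 libraries at 2 to 27 counts each. The values were 1.05, 0.37, 0.353 and 0.81 CPM in vehicle and 0.206, 0.577, 0.142, 0.495 and 0.286 CPM in cotadutide mice. Vehicle mice 1 and 4 were above all others, and vehicle mice 2 and 3 fell inside the cotadutide range. Pooled over the libraries this is 0.667 CPM (exact 95% Poisson interval 0.505 to 0.864) in vehicle and 0.347 CPM (0.229 to 0.505) in cotadutide mice, from counting error only. The gene did not pass the filter on low counts.

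In order of level per exon length, vehicle tissue ran from Fgf1 (11.2 ± 1.67 RPKM) through Fgfr1 (7.19 ± 0.894), Klb (2.47 ± 0.234), Fgf2 (1.46 ± 0.252), Fgf10 (1.08 ± 0.47), Fgf21 (0.679 ± 0.36), Fgfr3 (0.544 ± 0.0729), Fgfr2 (0.393 ± 0.0784) and Fgfr4 (0.165 ± 0.0885) to Kl. In cotadutide tissue the means of Fgf1 (6.88 ± 1.47 RPKM) and Fgfr1 (6.14 ± 0.945) were close. Fgf1 was still the higher in every cotadutide mouse, with ratios of 1.05 to 1.23. Then came Klb (4.11 ± 0.236), Fgf2 (1.03 ± 0.239), Fgfr2 (0.836 ± 0.208), Fgf10 (0.799 ± 0.329), Fgfr3 (0.488 ± 0.112), Fgf21 (0.359 ± 0.197) and Fgfr4 (0.0717 ± 0.0362). Within each group, the means ± SD of several genes overlapped, among them Fgf2 and Fgf10, and Fgfr3 and Fgf21. In cotadutide mice those of Fgfr2 overlapped with Fgf2 and with Fgf10. In vehicle mice those of Fgf21 overlapped with Fgf10 and with Fgfr2. The means alone do not settle the order of such genes. Compared within each library, Fgf2 was above Fgf10 in every mouse but cotadutide mouse 1 (1.18 against 1.3 RPKM). The order of Fgfr3 and Fgf21 differed between mice, as did that of Fgfr2 and Fgf10 in cotadutide mice. Fgfr2 was above Fgf2 in cotadutide mice 2 (0.919 against 0.737 RPKM) and 3 (1.11 against 0.923 RPKM). Fgf21 was above Fgf10 in vehicle mouse 4 (0.852 against 0.681 RPKM) and below Fgfr2 in vehicle mouse 3 (0.372 against 0.394 RPKM). The other mice of those groups kept the order of the means for these pairs. These exon lengths include every annotated transcript, so a gene with many long forms is understated.

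Ratios within a library do not depend on how libraries are scaled. Klb per Fgfr1, both per length, was 0.346 ± 0.0323 in vehicle (0.303 to 0.381) and 0.686 ± 0.139 in cotadutide mice (0.522 to 0.863), without overlap. Fgfr2 per Fgfr1 was 0.0552 ± 0.0127 and 0.143 ± 0.0554, also without overlap, with cotadutide mouse 1 at 0.0819 next to vehicle mouse 4 at 0.074. Fgf1 per Fgfr1 was 1.56 ± 0.214 and 1.11 ± 0.0824. The vehicle ratios ran from 1.34 to 1.85 and the cotadutide ratios from 1.05 to 1.23. Against the summed brown adipocyte markers of the same library, Klb was 5.44 ± 0.803 and 6.64 ± 0.749 CPM per 10000 marker CPM, and the groups overlapped (4.76 to 6.46 against 5.6 to 7.53). On that scale the Klb difference was 1.22-fold, and that of Fgfr2 was 1.57-fold without overlap (1.47 to 2.11 against 2.22 to 4.28). The brown adipocyte sum is mostly Fabp4 and Ucp1, with means of 10000 and 4780 CPM in vehicle mice. Fabp4 is a gene of fat cells in general. Ucp1 itself stood at 4780 ± 961 and 5890 ± 759 CPM with overlapping groups, and did not pass (edgeR adjusted p = 0.159). Against the brown adipocyte sum, the cotadutide ratio was 0.449 of the vehicle ratio for Fgf1 and 0.626 for Fgfr1, both without overlap.

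**Figure D3:**
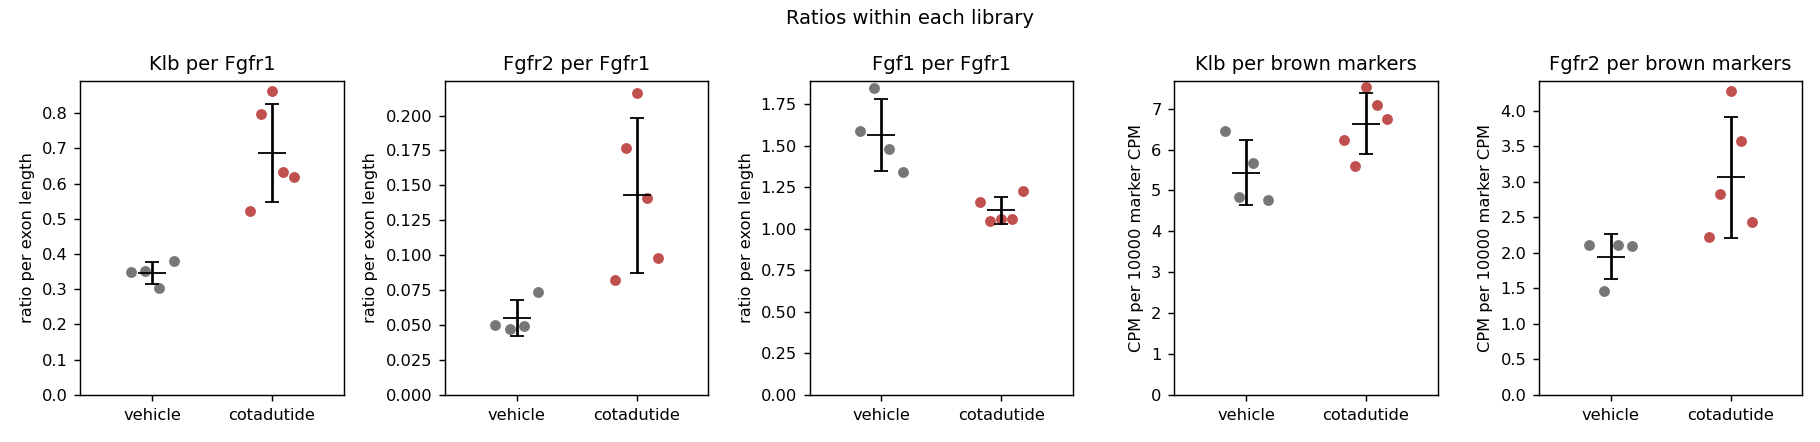
Ratios within each library, with 1 point per mouse, vehicle in grey, cotadutide in red, and bars for the mean ± SD; the first 3 panels divide levels per exon length and the last 2 divide CPM by 10000 CPM of summed brown adipocyte markers. Klb per Fgfr1 has means of 0.346 and 0.686 without overlap, while Klb per brown adipocyte markers overlaps between groups.

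Skeletal muscle RNA moved with the groups, so the fit was repeated with the log2 muscle marker sum of each library as a covariate. Klb then had a log2 fold change of 0.63 (SE 0.14), Fgfr2 of 0.70 (SE 0.28) and Fgf1 of -0.48 (SE 0.21). Those of Fgfr1 and Fgf10 shrank to -0.03 (SE 0.16) and -0.05 (SE 0.47), and that of Fgf2 was -0.38 (SE 0.26). Muscle level and treatment overlap closely in these libraries, and their parts cannot be told apart. Leaving out each library in turn gave a log2 fold change of 0.67 to 0.79 for Klb, 0.95 to 1.21 for Fgfr2 and -0.82 to -0.64 for Fgf1.

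**Figure D4:**
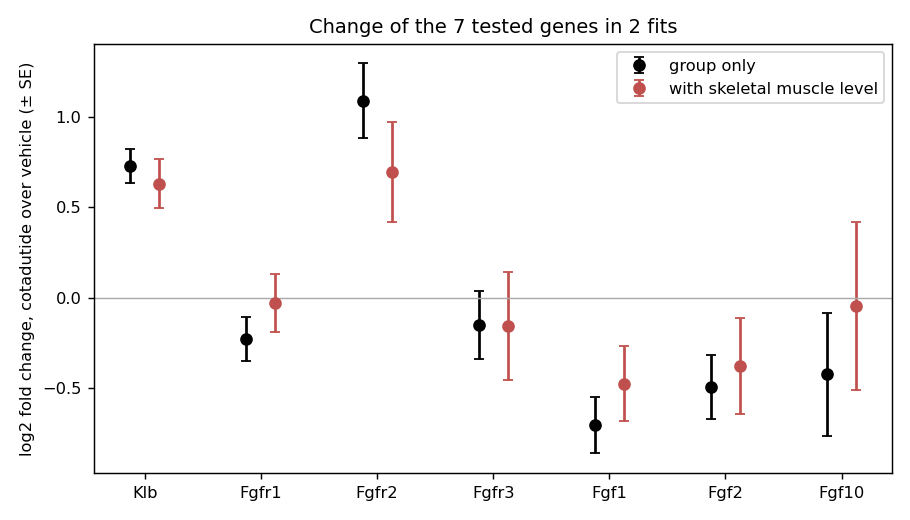
Log2 fold change of the 7 genes that passed the filter (vertical axis, cotadutide over vehicle, bars ± SE), with the group as the only term in black and with the skeletal muscle level as a covariate in red. Klb stays between 0.63 and 0.73, and Fgfr2 moves from 1.09 to 0.70.

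Mice within a group also differed in a way that several members shared. After the group means were subtracted, log2 levels over the 9 libraries had a Pearson r of 0.95 between Fgfr1 and Fgf10, 0.85 between Fgfr1 and Fgf1 and 0.82 between Fgf1 and Fgf10. Fgfr2 ran against Fgf1 (r = -0.84), and Klb had r = -0.055 with Fgfr1 and 0.65 with Fgfr2. The fibroblast and progenitor marker sum had r = 0.90 with Fgfr1, 0.78 with Fgf10 and 0.70 with Fgf1. The white adipocyte marker sum had r = 0.97 with Fgf1, 0.85 with Fgf10, 0.81 with Fgfr1 and -0.87 with Fgfr2. In vehicle mice that sum was mostly Npr3, Lep and Nnat (means of 292, 235 and 163 CPM). In cotadutide mice it was mostly Nnat and Retn (144 and 101 CPM). Of its 6 tested markers, 5 had a negative log2 fold change and Retn a positive one. Hoxc9, Hoxc10 and Tcf21 did not pass the filter. Klb had r = -0.04 with the fibroblast sum, -0.05 with the brown adipocyte sum, -0.36 with the white adipocyte sum and -0.45 with the muscle sum, and its largest value was 0.53, with the low mesothelial sum. Klb varied little within groups (SD 1.07 CPM in each, from 186 to 334 counts per library), and counting error weakens such correlations. Its low r values are therefore not read as independence from these cell types. All r values here are descriptions over 9 points that share their library, depth and tissue piece. The part of these cell types in the members' changes was not tested.

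The genes whose within-group pattern was most like that of Klb, among 9732 with a mean of at least 5 CPM, were Fam193a (r = 0.91), Pyroxd2 (r = 0.90), Prkar1a (r = 0.89), Parn (r = 0.88) and Hps1 (r = 0.87). Prkar1a encodes a regulatory subunit of the cyclic AMP-dependent protein kinase, and Parn a poly(A)-specific ribonuclease. Only the pattern within groups was compared here, over 9 libraries. These are the highest of 9732 correlations, and how many as high would arise by chance was not tested. The spread of Klb within groups was small (SD 1.07 CPM in each, from 186 to 334 counts per library), and counting error is part of it. No shared function is read from this list. Across groups these genes differed in level much less than Klb, with log2 fold changes from -0.01 for Prkar1a to 0.33 for Parn.

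Beyond the 10 genes, 141 other genes of FGF signalling were taken from 9 lists by known role, of which 120 passed the filter. Of these, 6 rose and 18 fell in edgeR's quasi-likelihood test at a Benjamini-Hochberg adjusted p of 0.05 over all genes, or 20%, against 18.7% of all 14747 genes tested (9.31% higher and 9.34% lower). Their share of calls was thus near the background. The median log2 fold change was -0.21, with 80 of the 120 genes negative, against a median of 0.00 over all genes. Of all genes tested, 7423 were positive and 7324 negative. The counts depended on single libraries. With vehicle mouse 1 left out they were 0 higher and 1 lower, with vehicle mouse 2 left out 0 and 0, and with vehicle mouse 3 left out 1 and 7. With vehicle mouse 4 left out they were 12 and 26, with cotadutide mouse 2 left out 3 and 5, and with cotadutide mouse 3 left out 4 and 9. At an unadjusted p under 0.05, edgeR gave 10 higher and 25 lower with vehicle mouse 1 left out, and 8 and 38 with vehicle mouse 2 left out. With the muscle covariate edgeR called 0 and 0, with 7 higher and 19 lower at an unadjusted p under 0.05, while DESeq2 without it called 7 and 22. None of the 24 called genes changed sign under any of the 16 alternatives.

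Of the other FGF ligands and related factors, 7 of 18 passed the filter, and 0 rose and 1 fell (median log2 fold change -0.20). Fgf13, an intracellular FGF-related factor that binds sodium channels and not receptors, fell from 6.55 ± 0.372 to 2.78 ± 1.06 CPM (log2 fold change -1.25, SE 0.23, adjusted p = 0.0147). All 5 cotadutide values (1.64 to 4.19 CPM) were below the vehicle values (6.10 to 6.99 CPM). With the muscle covariate its log2 fold change was -0.69 (edgeR adjusted p = 0.261). Fgf15 and Fgf23, the other endocrine ligands, did not pass the filter.

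Of 13 extracellular partners and proteases, 12 were tested, and 0 rose and 2 fell (median log2 fold change -0.16). Lctl, which encodes the klotho-related protein gamma-Klotho, fell from 68.7 ± 37.3 to 17.5 ± 6.79 CPM (log2 fold change -1.99, SE 0.46, adjusted p = 0.0215). Vehicle mice 1 to 3 were at 78.7 to 93.4 CPM, but vehicle mouse 4 was at 13.5 CPM, inside the cotadutide range of 11.5 to 29.0 CPM. The Lctl call stood under 6 of the 16 alternatives, and limma-voom gave an adjusted p of 0.0799. Fap, a protease that cleaves and inactivates human FGF21, fell from 5.61 ± 1.28 to 3.4 ± 0.746 CPM (log2 fold change -0.71, SE 0.20, adjusted p = 0.0333) without overlap, a call that stood under 9 of 16 alternatives. Fap also marks activated fibroblasts, whose marker sum was lower with cotadutide, and the part of these cells was not tested.

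Of the heparan sulfate genes, the 2 calls among the carriers were lower, and those among the enzymes went in both directions. Of 13 proteoglycan genes 11 were tested, and 0 rose and 2 fell (median log2 fold change -0.28). That is 18.2% called, near the 18.7% of all genes tested, and 2 of the 11 had a positive log2 fold change. Col18a1, a collagen and heparan sulfate proteoglycan of basement membranes, fell from 36.6 ± 10.9 to 14.8 ± 3.50 CPM (log2 fold change -1.31, SE 0.23, adjusted p = 0.0147), and Gpc1, the glypican anchored at the cell surface, from 69.5 ± 12.6 to 38.9 ± 13.1 CPM (log2 fold change -0.84, SE 0.23, adjusted p = 0.0333). Of 25 enzyme genes 21 were tested, and 2 rose and 3 fell, or 23.8% (median log2 fold change -0.21). The linker enzymes Xylt2 (15.4 ± 0.996 to 20.3 ± 1.85 CPM, log2 fold change 0.41, adjusted p = 0.019) and B3gat3 (47.1 ± 14.0 to 74.3 ± 8.01 CPM, log2 fold change 0.66, adjusted p = 0.0266) rose. The chain enzyme Extl1 (8.21 ± 1.72 to 3.14 ± 1.6 CPM, adjusted p = 0.0197), the first xylosyltransferase Xylt1 (3.23 ± 0.163 to 1.89 ± 0.437 CPM, adjusted p = 0.0248) and the sulfotransferase Hs6st1 (20.7 ± 1.5 to 16 ± 1.44 CPM, adjusted p = 0.024) fell. Of the 2 xylosyltransferases, which both start the chain, Xylt1 was thus lower and Xylt2 higher. With vehicle mouse 1 or vehicle mouse 2 left out, none of these 7 calls stood, and edgeR adjusted p ranged up to 0.685 over the alternatives (Gpc1).

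Of 31 adaptors and kinases below the receptors, all were tested, and 0 rose and 4 fell (median log2 fold change -0.11). Plcg2, a phospholipase of immune cells, fell from 2.42 ± 0.332 to 1.40 ± 0.17 CPM (adjusted p = 0.0216). The phosphatase Ptpn11 (162 ± 11.0 to 132 ± 12.3 CPM, adjusted p = 0.041) and the ERK-activated kinase Rps6ka3 (44 ± 6.88 to 33.0 ± 5.01 CPM, adjusted p = 0.0474) fell too, each with overlapping groups and under 8 of the 16 alternatives. The adaptor Frs2, picked with its values known, stood at 14.3 ± 1.80 and 12.2 ± 1.91 CPM and did not pass (edgeR adjusted p = 0.239).

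Of 13 feedback inhibitors of the cascade, 12 were tested, and 1 rose and 2 fell. The log2 fold change was positive for 2 and negative for 10 of the 12 (median -0.33). Dusp4, a nuclear phosphatase of ERK, rose 1.79-fold from 12.4 ± 3.59 to 22.4 ± 5.23 CPM (log2 fold change 0.84, SE 0.22, adjusted p = 0.0276), with cotadutide mouse 1 at 15.9 CPM below vehicle mouse 2 at 16.5 CPM. Spred1 fell from 23.9 ± 3.75 to 16.7 ± 3.30 CPM (log2 fold change -0.52, adjusted p = 0.0363) and Spry2 from 10.7 ± 1.41 to 8.28 ± 0.564 CPM (log2 fold change -0.38, adjusted p = 0.0393). Dusp6, often used as a readout of FGF signalling and picked with its values known, was 47.9 ± 3.57 and 49.6 ± 7.81 CPM (log2 fold change 0.05, SE 0.11, adjusted p = 0.79), and its sign changed between alternatives (-0.05 to 0.09). The Dusp4 call stood under 9, that of Spred1 under 8 and that of Spry2 under 7 of the 16 alternatives.

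ERK target genes were all lower on average with cotadutide. Of 13, 12 were tested, and all 12 had a negative log2 fold change (median -0.76). Of these, 0 rose, 3 fell and 9 were not called. That is 25% called, against 18.7% of all genes tested (9.34% lower). Ccnd1, which encodes cyclin D1, fell 3.11-fold from 12.5 ± 5.36 to 4.05 ± 1.05 CPM (log2 fold change -1.64, SE 0.32, adjusted p = 0.0163). Vehicle mouse 4 was again low, at 4.97 CPM beside 12.5 to 16.5 CPM in the other vehicle mice. Myc fell from 8.54 ± 2.22 to 5.23 ± 0.761 CPM (adjusted p = 0.0241) and Etv5, an Ets factor that FGF signals induce, from 3.49 ± 0.393 to 1.88 ± 0.714 CPM (adjusted p = 0.0398), both without overlap. The immediate early genes Egr1 (248 ± 114 to 142 ± 65.3 CPM) and Fos (292 ± 187 to 126 ± 87.7 CPM) varied widely between mice and did not pass (adjusted p = 0.147 and 0.146). Both were picked with their values known. Leaving out vehicle mouse 1, vehicle mouse 2 or cotadutide mouse 2 ended the Ccnd1 call (edgeR adjusted p = 0.0573, 0.0535 and 0.0506), as did the muscle covariate (0.229). The calls of Ccnd1 and Myc each stood under 12 and that of Etv5 under 8 of the 16 alternatives.

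**Figure D5:**
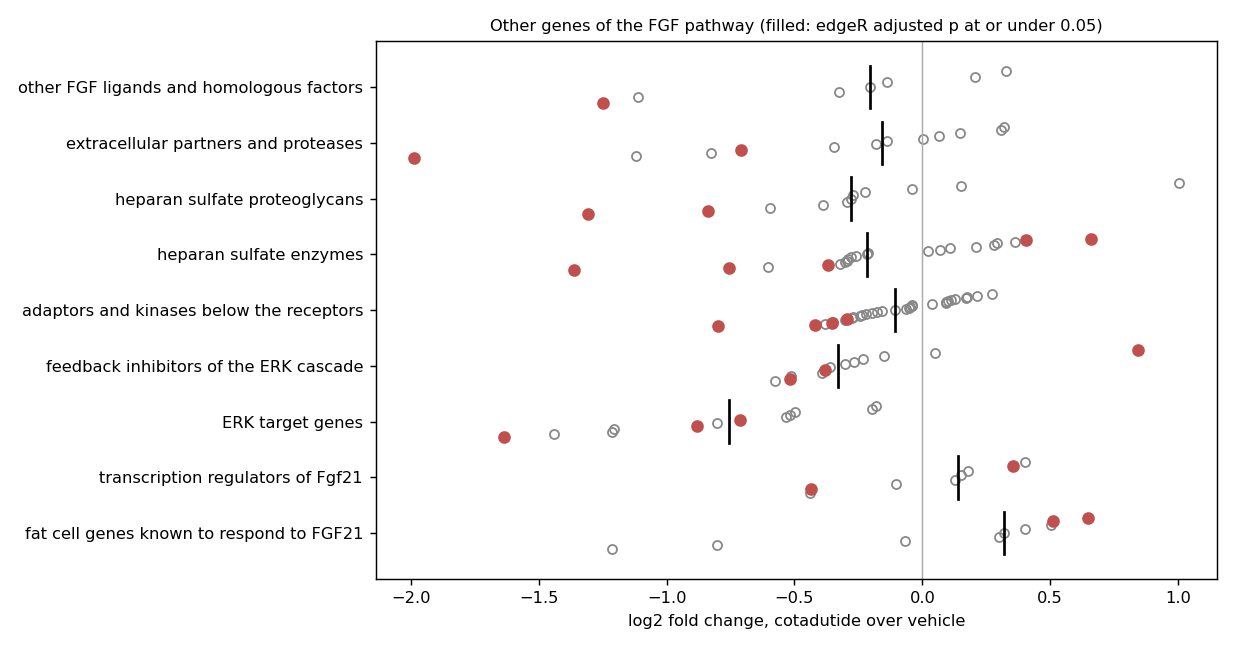
Log2 fold change (horizontal axis, cotadutide over vehicle) of each tested gene in the 9 FGF pathway lists, filled where the edgeR adjusted p was at or under 0.05 and open otherwise, with a black line at the median of each list. The ERK target list has all 12 points below 0 and a median of -0.76; Egr1 and Fos (ERK targets) and Ppargc1a (Fgf21 regulators) also stand among the fat cell genes known to respond to FGF21.

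Transcription regulators of the Fgf21 gene also moved in both directions, with 8 of 9 tested, 1 higher and 1 lower (median log2 fold change 0.14). Atf4, the stress factor with the binding motif shown above in the Fgf21 start region, fell from 145 ± 8.90 to 107 ± 8.78 CPM (log2 fold change -0.44, SE 0.08, adjusted p = 0.0156). The 5 cotadutide values (97.5 to 117 CPM) were below the vehicle values (134 to 155 CPM), and the call stood under 13 of the 16 alternatives. Mlxipl, the carbohydrate-sensing factor ChREBP, rose from 236 ± 26.4 to 303 ± 15.9 CPM (log2 fold change 0.36, SE 0.09, adjusted p = 0.0277), under 6 of the 16 alternatives. Ppara, the fatty acid receptor that induces Fgf21 in liver, did not pass (edgeR adjusted p = 0.629). It was picked with its values known.

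Of 9 fat cell genes known to respond to FGF21, all were tested, and 2 rose and 0 fell (median log2 fold change 0.32). These were Adipoq (774 ± 110 to 1210 ± 133 CPM, adjusted p = 0.0147), which encodes adiponectin, and Cidea (1570 ± 94.9 to 2240 ± 319 CPM, adjusted p = 0.0184), a lipid droplet protein. Both are also among the 12 brown adipocyte markers, as are Ucp1, Dio2, Elovl3 and Ppargc1a. All 12 of those markers had a positive log2 fold change, with a median of 0.36. Of the list, 6 genes were positive, and each of them is such a marker. The other 3, Slc2a1, Egr1 and Fos, were negative, so the list median largely repeats the brown adipocyte markers. The rise of Adipoq and Cidea was known when the list was written and is no independent evidence. Slc2a1, the glucose transporter that FGF21 induces in cultured adipocytes, stood at 7.68 ± 0.311 and 7.28 ± 1.31 CPM (log2 fold change -0.07, SE 0.14, adjusted p = 0.758), and it too was picked with its values known. With the muscle covariate, Adipoq had a log2 fold change of 0.76 and Cidea of 0.41, and neither passed (edgeR adjusted p = 0.199 and 0.278).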

How the data were processed

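Polyadenylated RNA from 30 mg of brown adipose tissue per mouse was sequenced in 9 libraries. The deposited values are raw read counts for each Ensembl gene, made by the authors with bcl2fastq 2.17, Trimmomatic 0.36, STAR 2.5.2b and featureCounts of Subread 1.5.2 on mm10, per the submitters' processing notes. The counting strand and the annotation version were not given in the sources used here, so reads of overlapping or antisense genes cannot be told apart. Of 49315 identifiers, 48970 matched a symbol, and the others held 0.031% of counts. The gene models of 9 of the 10 members had the span of GENCODE M21.

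Genes passing filterByExpr (14747, with 99.87% of counts) were normalized with edgeR's TMM method (factors 0.915 to 1.06) and tested with edgeR 4.0.16 in R 4.3.3 (glmQLFit robust, glmQLFTest; all 9 libraries, group only, Benjamini-Hochberg at 0.05), after a check on simulated counts. The SE is the log2 fold change over the square root of F. The common biological coefficient of variation was 17%. Library pairs differed by more than counting noise (lowest chi-square per degree of freedom 12.18). Each library is a separate mouse. Alternatives were DESeq2 1.42.0, limma-voom (limma 3.58.1), upper-quartile scaling, 2 filters, each library left out, mouse number as a block and muscle level as a covariate. Within-group correlations used log2(CPM + 0.5).

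The members, gene lists, marker lists and motifs were chosen with earlier results of these data known. Named pathway genes are, per list, up to 5 called genes with the smallest adjusted p, and for markers the 2 most abundant of each list, of which only some are printed. Genes said to be picked with their values known fall outside this rule. Spry3 was not analysed here, and some called genes are counted but not reported by name.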

Additional observations from a re-analysis of the deposited data

Results flagged for a closer look

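Among 104 groups of members, named pathway genes, marker sums and ratios, 8 held a mouse far from the others of its group, where chance flags about 1 in 20. Vehicle mouse 4 was the highest of its group for Gpc1 (88.2 CPM against 60.7 to 65.1), for Xylt2 (16.9 CPM against 14.8 to 14.9) and for the ratio of Fgfr2 to Fgfr1 per length (0.074 against 0.047 to 0.0501). The same mouse had the highest muscle marker sum, 49100 CPM. Cotadutide mouse 3 was the highest for lymphocyte markers (41.9 CPM against 3.24 to 4.17) and endothelial markers (759 CPM against 575 to 592), and the lowest for Myc (3.91 CPM against 5.23 to 5.71). It was also the highest of all mice for Klb (20.1 CPM) and Fgfr2 (11.5 CPM). Vehicle mouse 1 was the lowest for Mlxipl (197 CPM against 247 to 253). For Kl, cotadutide mouse 1 was the only one of its group with a count (1 count, 0.0514 CPM).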

How the results depend on the processing

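All 112 member values under the 16 alternatives kept their sign, and 111 moved by less than the spread between mice. The exception was Fgfr2 with the muscle covariate (log2 fold change 0.70). Over all genes, 1373 higher and 1378 lower became 900 higher without a filter on low counts. With the muscle covariate edgeR called 0 and 0 (1394 higher and 1035 lower at an unadjusted p under 0.05), and 0 and 0 of the FGF pathway genes. With each library left out, the counts over all genes ranged from 42 to 2116 higher and from 92 to 1724 lower, and those of the FGF pathway from 0 to 12 higher and from 0 to 26 lower. The cause was not tested. The labels do not say whether mouse numbers pair the samples, and the main fit treated them as unpaired. Deviations of same-numbered mice correlated at 0.135, -0.049, 0.029 and -0.021. Such values cannot show how the mice were numbered or handled. With mouse number as a replicate block, 516 genes were higher and 768 lower, and 2 and 10 of the pathway. Of 100 marker sums recomputed, 99 kept their direction; with so few splits of the mice, their adjusted p could hardly pass, so it says nothing about stability. That of lymphocyte markers turned from a log2 ratio of 1.58 to -0.034 without cotadutide mouse 3, and over leaving out each mouse it ranged from -0.034 to 1.82. Depth limits Kl (4 and 1 counts in vehicle and cotadutide), Fgf21 (57 and 27) and Fgfr4 (49 and 21).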
